A study of Mus musculus with 3 samples.

Results

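The chromatin regulators described here are 37 mouse genes taken by symbol from a list of enzymes, complex subunits and DNA-binding proteins that act on chromatin. All 37 were found among the 14355 genes of the count table. They fall into 8 groups: DNA methylation (5 genes), Polycomb (4), histone demethylases (5), deacetylases with their corepressor (6), nucleosome remodellers (9), histone methyltransferases (3), acetyltransferases with their scaffold (3) and sequence-specific DNA-binding proteins (2). They were measured in naive CD4 T cells, which have left the thymus and have not yet met their foreign antigen. The cells were taken fresh from spleen and lymph node of C57BL/6 mice aged 8 to 12 weeks, with males and females pooled, and no agent or genetic change is named in the labels. Live single cells that were TCRb+, CD4+ and CD5+ and lacked CD8, CD25 and CD44 were sorted 1 per well into 384-well plates. CD5 is a surface protein that was used as a stand-in for the strength of tonic T cell receptor contacts with self, and the question put to the cells is what changes along it. Every cell carries a CD5 fluorescence value and belongs to a CD5 High class (174 cells, median signal 89856), a Middle class (349 cells, 45073) or a Low class (174 cells, 16646).

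Chromatin regulators add, remove or read chemical marks on DNA and histones, or use ATP to slide and eject nucleosomes, and so set which genes a cell can transcribe. In T cells, DNA methyltransferases, Polycomb enzymes and the SWI/SNF and NuRD remodelling complexes are known to guard lineage identity and to be redeployed after activation. Bcl11b is a zinc-finger protein needed to commit thymocytes to the T cell lineage, and Ctcf organises chromatin loops.

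The 3 plates held 172, 201 and 324 cells and 726230, 1113632 and 1404157 molecules, with 716 to 13486 per cell. Each molecule is counted once by its unique molecular identifier (UMI), a random tag next to the poly(A) tail, so levels of different genes are set side by side without dividing by length. Levels below are counts scaled to the same total (CPM, the share of the summed UMIs of a plate, or of a class within a plate). T cell genes matched the sort: Cd4 had a UMI in 95.7% of cells, Lef1 in 84.8% and Cd3e in 80.6%. Of genes that mark cells outside the gate, Cd79a of B cells had a UMI in 1.15% of cells and the erythroid gene Alas2 in 0.287%. Others were found in more cells: H2-Aa of the B cell list in 5.02%, Cd8b1 of CD8 T cells in 4.16% and Klrd1 of NK cells in 9.04%. Foxp3, the regulatory T cell factor, had a UMI in 8.03% of cells. Cd44 and Cd69, listed for activated or memory T cells, had one in 9.47% and 32.1%. Of the same list, Lgals1 had one in 15.8%, Il2ra in 1.87%, Cxcr3 in 0.287% and S100a6 in 0.143%, and Ccl5 had none. Of the 6 listed myeloid markers 2 were in the table, Ctss and Cst3, and they summed to 295, 258 and 209 CPM in plates 1, 2 and 3, with a UMI in 40.2% and 19.9% of cells. What cells these molecules came from was not tested. Cd5 mRNA served as the check of the classes. It had 637, 282 and 335 CPM in the High class of plates 1, 2 and 3, against 96.6, 259 and 49.6 CPM in the Low class of the same plates. The mRNA thus hardly differed between the classes of plate 2. The labels do not settle whether the CD5 values of plate 2 belong to the wells they are listed with, so every class and slope value of that plate carries this doubt. For the members of smallest p in each direction, values are also given without plate 2. The class differences of Arid1b, Dnmt3a and Tet3 are given only with all plates.

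Promoter sequences of 29 of the 37 genes were found in RefSeq (build GRCm38.p6), each window running from 250 bases before the transcription start to 50 after it. Where several starts were listed the most upstream was used, and in 25 of the 29 genes that start lay within 2000 bases of the 5′ end of the gene in GENCODE M21. The windows were rich in CpG, the dinucleotide that DNA methyltransferases act on. They held a median of 31 CpGs, with a range of 2 in Dnmt1 to 57 in Tet2, against a median of 19 in the 10506 measured genes that had a window. The most upstream start, as taken for Dnmt1, need not be the one used in these cells, which was not tested. An observed-to-expected CpG ratio over 0.6 was found in 89.7% of the members' windows, against 65.4% of all. The motif GGGCGG, searched on both strands, was in 23 of 29 windows (79.3%, against 58.7% of all), and TATAAA was in 1 of 29 (3.45%, against 8.50%). These are letter matches and no evidence of binding. The 3 windows below span the range of levels described next. Bcl11b was the highest member and carried the TATAAA match, which lies on the opposite strand and reads tttata in the sequence printed. Arid1a was the highest member whose RefSeq start is also the 5′ end of its GENCODE gene, and Tet2 was next to lowest with the most CpGs. They lie on the minus strand at chr12:108003365-108003664 (Bcl11b, 9 CpGs), chr4:133756720-133757019 (Arid1a, 22 CpGs) and chr3:133544341-133544640 (Tet2, 57 CpGs), and are written 5′ to 3′ with each CpG in capitals.
Bcl11b: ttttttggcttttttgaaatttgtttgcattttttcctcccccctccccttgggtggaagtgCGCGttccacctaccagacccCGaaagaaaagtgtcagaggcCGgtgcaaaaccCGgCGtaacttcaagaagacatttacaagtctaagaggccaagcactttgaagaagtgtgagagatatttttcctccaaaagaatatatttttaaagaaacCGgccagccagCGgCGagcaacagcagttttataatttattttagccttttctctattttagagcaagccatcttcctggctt
Arid1a: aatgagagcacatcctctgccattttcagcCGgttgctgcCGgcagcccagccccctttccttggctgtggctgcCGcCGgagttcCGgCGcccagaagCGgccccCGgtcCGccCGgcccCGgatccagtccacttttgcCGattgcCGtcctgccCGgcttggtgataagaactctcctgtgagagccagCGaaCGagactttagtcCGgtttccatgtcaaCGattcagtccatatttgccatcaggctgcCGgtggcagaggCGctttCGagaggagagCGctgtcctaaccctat
Tet2: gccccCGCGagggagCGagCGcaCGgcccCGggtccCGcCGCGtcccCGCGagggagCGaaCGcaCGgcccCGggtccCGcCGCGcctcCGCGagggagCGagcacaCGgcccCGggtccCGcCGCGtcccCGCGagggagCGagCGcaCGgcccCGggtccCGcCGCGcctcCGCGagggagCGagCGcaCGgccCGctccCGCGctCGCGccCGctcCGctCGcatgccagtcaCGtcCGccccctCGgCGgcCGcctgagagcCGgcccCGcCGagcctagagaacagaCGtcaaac

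The 37 genes were well represented in resting naive cells. Their median level was 76.5 CPM, against 50.1 CPM for 179 other chromatin genes (of 188 listed) and 12.1 CPM for all genes, and all 37 lay above the median of all genes. Together they took 4971 ± 212 CPM (SD, n = 3 plates), with 4731, 5046 and 5136 CPM in plates 1, 2 and 3. The highest 4, Bcl11b, Chd3, Ncor1 and Arid1a, held 41.1% of the members' molecules and were the highest 4 in every plate, and the highest 12 held 70.0%. The order of the members was similar between plates, with Spearman correlations over the 37 genes of 0.915, 0.941 and 0.957 for the 3 pairs of plates. Of the 37 genes, 23 had their 3 plates within 1.5-fold of each other and 5 differed by more than 2-fold (Tet3, Crebbp, Dnmt3a, Smarcb1 and Tet1).

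**Figure D1:**
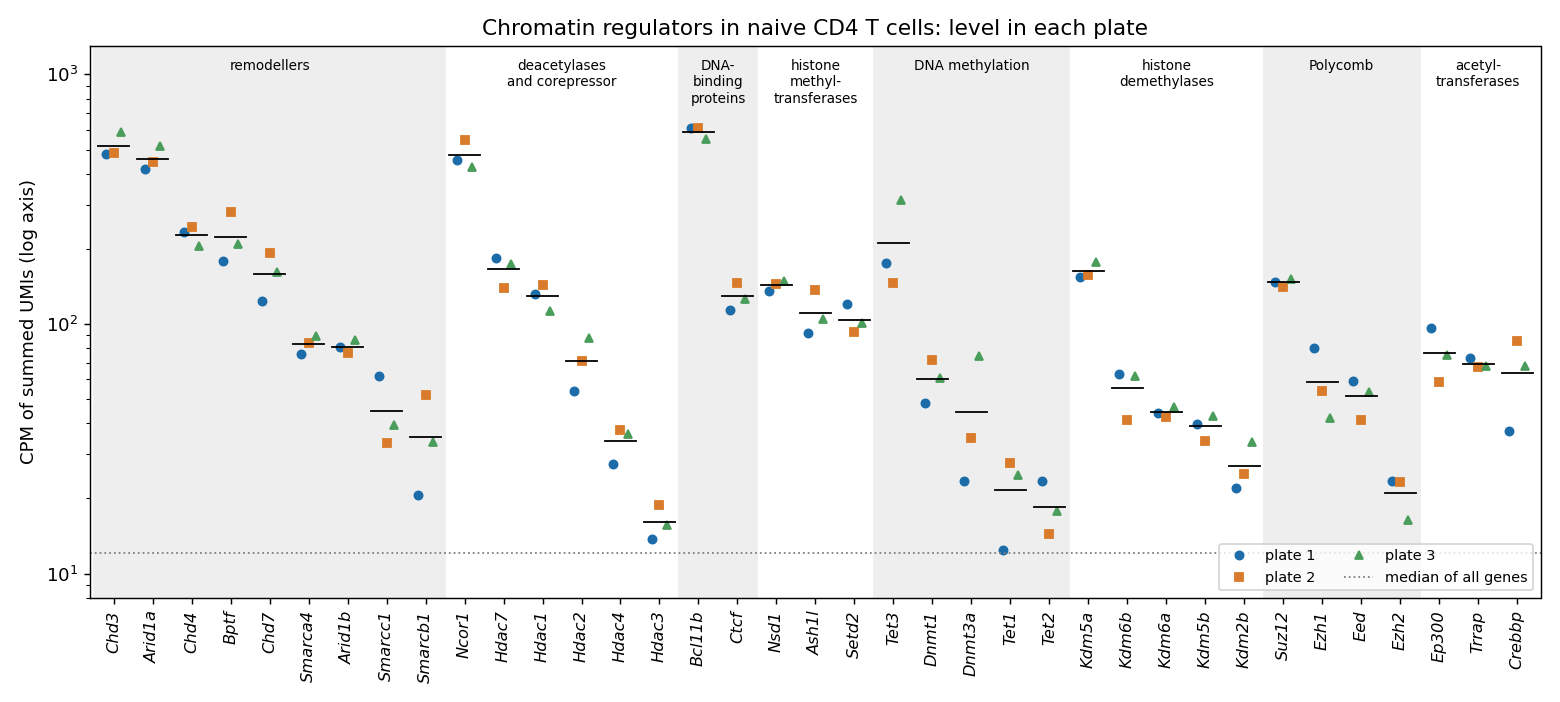
CPM of summed UMIs on a log axis for the 37 genes, grouped by role, with 1 symbol per plate and a black line at the mean of the 3 plates. The dotted line is the median of all genes at 12.1 CPM, and the genes run from Bcl11b at 590 CPM down to Hdac3 at 16.1 CPM.

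Among the sequence-specific proteins, Bcl11b had 609, 611 and 551 CPM in plates 1, 2 and 3, a mean of 590 ± 34.2 CPM (SD, n = 3), and a UMI in 71.3% of cells (exact 95% binomial interval 67.8 to 74.6, which covers counting error only). It ranked 187th of all genes. Ctcf had 114, 146 and 126 CPM and a UMI in 32.9% of cells. These 2 genes held 14.5% of the members' molecules.

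The nucleosome remodellers, with 9 of the 37 genes, had the largest sum of the groups as listed. It came to 1831 ± 139 CPM (SD, n = 3) or 36.8% of the members' total. Group sums depend on which genes were listed. Among the other chromatin genes, the DNA-binding protein Satb1 had 1098 CPM, against 719 CPM for the listed DNA-binding group. Mll5, of the other histone methyltransferases, had 380 CPM, against 359 CPM for the listed methyltransferases. Chd3, an ATPase of the NuRD complex, had 479, 485 and 586 CPM, and its paralogue Chd4 had 233, 244 and 206 CPM, so that Chd3 was 2.30 ± 0.476 times as high as Chd4 (SD over plates). Arid1a, the DNA-binding subunit that defines the canonical form of SWI/SNF, had 417, 445 and 517 CPM, and its alternative Arid1b had 81.2, 76.3 and 86.2 CPM. The ratio of Arid1a to Arid1b was 5.14, 5.83 and 5.99 in the 3 plates. Bptf, the large subunit of the NURF remodeller, had 179, 281 and 209 CPM, and Chd7, another ATPase of the CHD family, had 124, 193 and 161 CPM. Smarca4, a SWI/SNF ATPase, averaged 83.0 CPM and the core subunits Smarcc1 and Smarcb1 44.8 and 35.4 CPM, all below Arid1a at 460 CPM. The paralogues Smarca2 and Smarcc2 are not among the 37 genes. Smarca2 averaged 133 CPM and Smarcc2 98.6 CPM, and in every plate they lay above Smarca4 and Smarcc1, respectively. Smarcb1, the lowest of the 9 listed remodellers, had 20.7, 52.1 and 33.5 CPM.

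Deacetylases and their corepressor summed to 891 ± 56.7 CPM (17.9% of the members' total), most of it from Ncor1, the scaffold that brings Hdac3 to nuclear receptors and other repressors. Ncor1 had 455, 546 and 425 CPM, whereas its partner Hdac3 was the lowest of all 37 genes at 13.8, 18.9 and 15.7 CPM, with a UMI in 4.88% of cells (interval 3.40 to 6.75). The ratio of Ncor1 to Hdac3 was 33.0, 29.0 and 27.1. Hdac7, the class IIa deacetylase of thymocytes, had 183, 139 and 174 CPM and was 6.65, 3.69 and 4.80 times as high as Hdac4. Hdac4 had 27.5, 37.7 and 36.3 CPM. Hdac1 had 132, 143 and 113 CPM and Hdac2 had 53.7, 71.0 and 87.6 CPM. The last 1000 bases of Ncor1, Hdac7 and Kdm2b overlap a gene on the other strand that is also in the table (Ttc19, Slc48a1 and Rnf34). No source used here says whether the counting used strand, so those 3 levels may include molecules of the neighbour.

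In the DNA methylation group, Tet3 stood above the other TET dioxygenases, which oxidise methylated cytosine. Its levels were 175, 146 and 313 CPM in plates 1, 2 and 3, against 23.4, 14.4 and 17.8 CPM for Tet2 and 12.4, 27.8 and 24.9 CPM for Tet1. Tet3 was thus 7.47, 10.2 and 17.6 times as high as Tet2. Dnmt1, which copies methylation after replication, had 48.2, 71.9 and 60.5 CPM, and Dnmt3a, which methylates new sites, had 23.4, 35.0 and 74.1 CPM. Tet3 and Dnmt3a were both highest in plate 3, where B cell markers were also highest. Cd79a had 0, 1.80 and 10.7 CPM in plates 1, 2 and 3, and Ms4a1 had 7.12 CPM in plate 3 and no UMI in plates 1 and 2. The part of B cells in the plate 3 levels was not tested.

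The histone methyltransferases, demethylases, Polycomb subunits and acetyltransferases each took between 4.21% and 7.21% of the members' total. Suz12, the scaffold of Polycomb repressive complex 2, was steady at 147, 141 and 152 CPM and 2.91 ± 0.466 times as high as Eed, the subunit that reads the Polycomb mark. Of the alternative catalytic subunits, Ezh1 had 79.9, 53.9 and 42.0 CPM and Ezh2, the form associated with dividing cells, had 23.4, 23.3 and 16.4 CPM. Ezh1 was higher than Ezh2 in each plate, by 2.76 ± 0.578 times. The proliferation genes Mki67 and Top2a had a UMI in 2.15% and 1.87% of cells. The 10 measured cycling genes summed to 390, 493 and 534 CPM in plates 1, 2 and 3, of which Pcna, also used in DNA repair, took 202, 317 and 294 CPM and Hmgb2 96.4, 77.2 and 113 CPM.

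Kdm5a, which removes the methyl mark of active promoters, led the demethylases at 154, 157 and 177 CPM and was 4.20 ± 0.376 times as high as its paralogue Kdm5b at 39.9, 34.1 and 42.7 CPM. The demethylases of the Polycomb mark were near each other, with Kdm6b at 63.3, 41.3 and 62.0 CPM and Kdm6a at 44.1, 42.2 and 46.3 CPM. Their ratio crossed 1 between plates (1.44, 0.979 and 1.34). Kdm2b, which links CpG islands to Polycomb, was lowest at 22.0, 25.1 and 33.5 CPM. Nsd1, Ash1l and Setd2, which place methyl groups at transcribed or active genes, averaged 143, 111 and 104 CPM, with 136, 144 and 148 CPM for Nsd1 and 120, 92.5 and 101 CPM for Setd2.

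The paralogous acetyltransferases Ep300 and Crebbp had no stable order. Ep300 had 96.4, 58.4 and 74.8 CPM and Crebbp had 37.2, 85.3 and 67.7 CPM, so their ratio was 2.59, 0.684 and 1.11. Trrap, the scaffold of acetyltransferase complexes, averaged 69.3 CPM, and the 3 genes of this group together gave 207, 211 and 210 CPM.

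None of the members passed the test between CD5 High and Low cells. Cells were summed by plate and class, and the 9 sums were compared with edgeR's quasi-likelihood test with the plate as a block and Benjamini-Hochberg adjustment over all genes tested. The labels name no separate animals, so p-values measure only the spread between these sums, which may be technical. Cd5 was 1.70 higher on the log2 scale in High cells (SE 0.30, adjusted p = 0.00231 by edgeR). Without plate 2 it was 2.76 higher (adjusted p = 1.21e-09 by edgeR). Plate 2 was singled out by its Cd5 values, so this rise is no independent check of the classes. The call of Cd5 was lost without plate 1 (1.20, adjusted p = 0.609 by edgeR), without plate 3 (1.29, adjusted p = 0.0594), with no replicate block (1.63, adjusted p = 0.777) and by DESeq2 (1.83, adjusted p = 0.998). Of the 37 genes, 32 had enough counts to be tested, and Tet1, Tet2, Ezh2, Kdm2b and Hdac3 did not. The count past an adjusted p of 0.05 was 0 of 32 by edgeR, against 9 of 4813 genes (0.187%) over the table. An unadjusted edgeR p under 0.05 was reached by 1 member, against 6.17% of all genes. DESeq2 called 0 of the 4813 genes and so 0 members, and its unadjusted p was under 0.05 for 147 genes, 0 of them members. The members' log2 differences were positive for 19 and negative for 13, with a median of 0.04 against 0.00 for all genes.

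Bcl11b was the member with the smallest p. It had 551, 703 and 578 CPM in the High class of plates 1, 2 and 3, against 560, 415 and 502 CPM in the Low class. The High class was higher in plates 2 and 3 only, and the classes overlapped. The log2 difference was 0.32 (SE 0.15, adjusted p = 0.795 by edgeR). Without plate 2 it was 0.12 (adjusted p = 0.986 by edgeR), so most of the value came from the plate in which Cd5 mRNA hardly differed. It was 0.46 without plate 1 and 0.36 without plate 3.

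**Figure D2:**
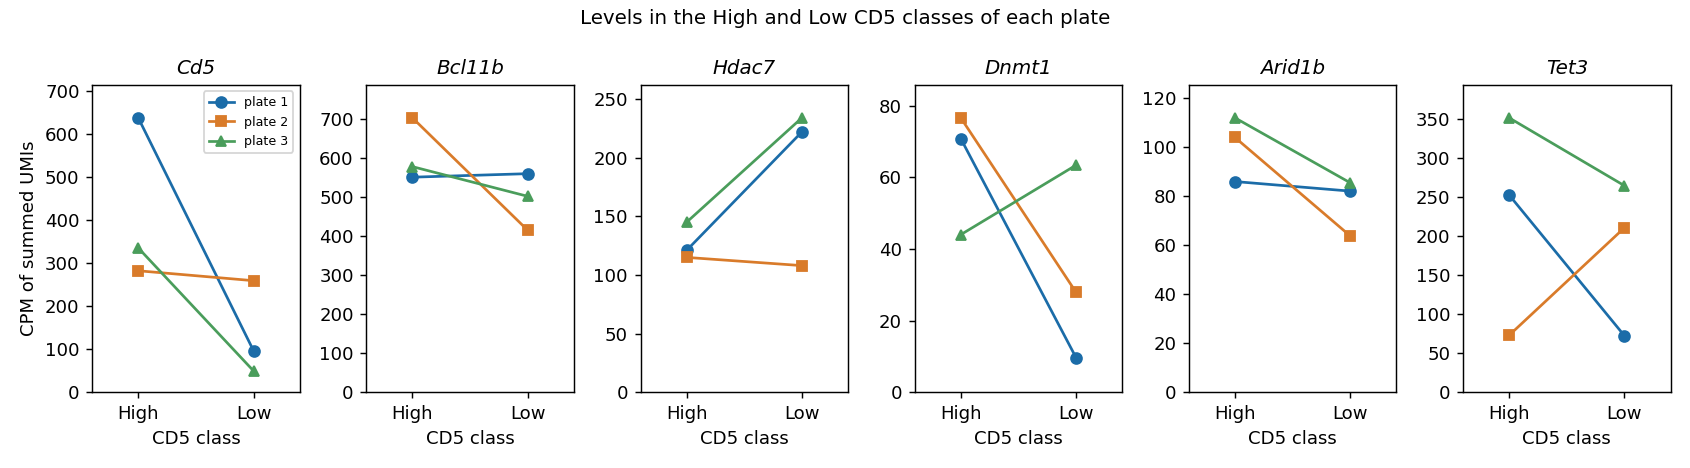
CPM of summed UMIs in the High and Low CD5 classes, with 1 line per plate, for Cd5 and 5 chromatin regulators. Cd5 is higher in the High class in all 3 plates but barely so in plate 2 (282 against 259 CPM), and of the 5 regulators only Arid1b has High sums that all lie above its Low sums.

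On the other side, Hdac7 had 121, 115 and 145 CPM in High cells of plates 1, 2 and 3, against 222, 108 and 234 CPM in Low cells. It was lower in High cells of plates 1 and 3, the plates in which Cd5 mRNA followed the class. The log2 difference was -0.52 (SE 0.27, adjusted p = 0.817 by edgeR). Without plate 2 it was -0.74 (adjusted p = 0.658 by edgeR), and neither value passed the test.

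Dnmt1 and Kdm5b had low levels and wide errors. Dnmt1 had 70.8, 76.6 and 44.0 CPM in High cells, against 9.66, 27.9 and 63.4 CPM in Low cells, from 49 and 32 molecules in all. Its log2 difference of 0.82 had an SE of 0.47, and plate 3 ran the other way. Without plates 1, 2 and 3 in turn it was 0.31, 0.56 and 1.91 (adjusted p = 0.990, 0.978 and 0.553 by edgeR). Kdm5b had 60.7, 34.8 and 77.8 CPM in High cells, against 24.2, 39.9 and 30.3 CPM in Low cells, a log2 difference of 0.84 (SE 0.50) that came to 0.67, 1.35 and 0.47 without plates 1, 2 and 3 in turn (adjusted p = 0.922, 0.700 and 0.999 by edgeR). Without plate 2, 3 of 32 members had an unadjusted p under 0.05 and 0 passed, against 327 and 20 of 5113 genes. Hdac2, Setd2 and Smarcc1 had log2 differences of 0.58, 0.46 and 0.59. Without 1 plate each moved by over 1.5 times: Hdac2 to 0.30 without plate 2 and 0.96 without plate 3, Setd2 to 0.09 without plate 3 (0.62 without plate 2), and Smarcc1 to 0.17 without plate 1 and 0.90 without plate 2. Setd2 was -0.23 in cells thinned to the same depth. Toward lower values in High cells came Chd3 (-0.18), Kdm6b (-0.49), Chd7 (-0.29), Ezh1 (-0.36) and Hdac4 (-0.51). Without plate 2 these were -0.29, -0.91, -0.45, -0.84 and -0.65. They shrank to -0.06 for Chd3 and -0.32 for Hdac4 without plate 1, and to -0.15 for Kdm6b, -0.06 for Chd7 and -0.07 for Ezh1 without plate 3. None passed, with adjusted p from 0.878 to 0.977 over these 10 genes by edgeR.

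**Figure D3:**
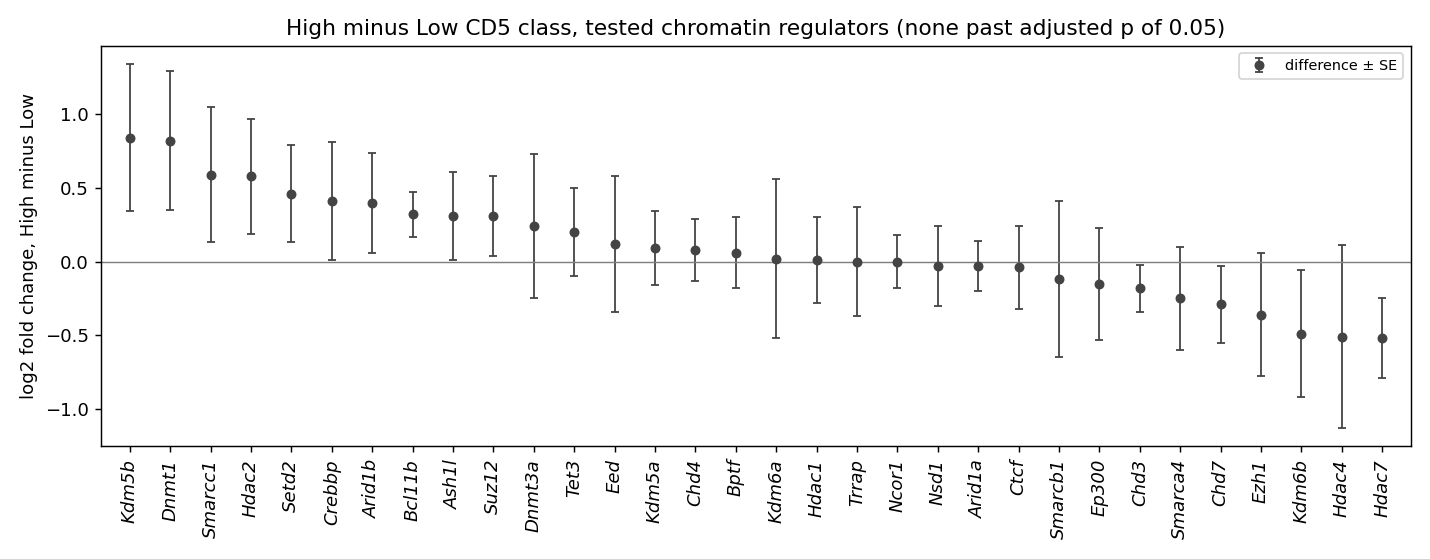
Log2 fold change, High minus Low, of the 32 tested chromatin regulators, ordered by size, with an SE worked out from edgeR's F statistic. The values run from 0.84 for Kdm5b to -0.52 for Hdac7, and the highly expressed genes Bcl11b, Chd3, Arid1a and Ncor1 have the narrowest errors.

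The intervals of the abundant members were the narrowest. The 95% interval of the High to Low ratio was 0.776 to 1.24 for Arid1a, 0.783 to 1.28 for Ncor1, 0.709 to 1.10 for Chd3 and 0.785 to 1.43 for Chd4. For 17 of the 32 tested members the interval lay within a 2-fold change in either direction. For Dnmt1 it reached 3.40-fold and for Kdm5b 3.63-fold, so differences of that size lie within the error of those genes. Each SE was the size of the log2 value divided by the square root of edgeR's F statistic. The SE behind the intervals rests mostly on a spread shared over genes (37.9 prior against 4 residual degrees of freedom). An interval can thus be narrower than the gene's own spread over plates. Tet3 was among the 17 with 0.754 to 1.76, yet its plates 1 and 2 lay outside that range in opposite directions (253 and 73.1 CPM in High cells, against 72.5 and 211 CPM in Low cells). Arid1b was the only member whose sums did not overlap, with 86.0, 104 and 112 CPM in High cells against 82.1, 63.8 and 85.5 CPM in Low cells. Such separation was seen in 7.90% of all genes tested, and the Arid1b difference had an adjusted p of 0.951 by edgeR.

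No role group had a member past the threshold. The 3 tested genes of DNA methylation all had positive differences (Dnmt1 0.82, Dnmt3a 0.24 and Tet3 0.20), whereas the 6 tested of the other genes of DNA methylation were all negative (median -0.22), and none of either set passed. The positive signs did not hold in every plate: Dnmt1 and Dnmt3a were lower in High cells of plate 3, and Tet3 in those of plate 2. The 9 remodellers split into 4 positive and 5 negative with a median of -0.03. Of the other chromatin genes, 127 were tested and 0 passed by edgeR, with a median of -0.10 against 0.00 for all genes. An unadjusted edgeR p under 0.05 was reached by 8 of the 127, 1 higher and 7 lower in High cells. Over the table it was reached by 297 of 4813 genes (6.17%), 149 higher and 148 lower. Brpf3 had the smallest p of the 127 (log2 difference -1.94, adjusted p = 0.773 by edgeR), with 10.1, 0 and 23.7 CPM in High cells, against 33.8, 55.9 and 41.4 CPM in Low cells. Smarcd1, a SWI/SNF subunit, had 20.2, 20.9 and 37.2 CPM in High cells, against 96.6, 23.9 and 74.5 CPM in Low cells (log2 difference -1.25, adjusted p = 0.788 by edgeR, and -0.73 without plate 1). Jarid2, a Polycomb cofactor, had 80.9, 143 and 91.3 CPM in High cells, against 58.0, 55.9 and 68.9 CPM in Low cells (log2 difference 0.76, adjusted p = 0.795 by edgeR, and 0.47 without plate 2). The 2 sets of Jarid2 values did not overlap, which was so for 7.90% of all genes tested. Among the other chromatin genes such separation went both ways. Smc1a and Mta2 were also higher in High cells without overlap, and Mbd2, Sin3b and Setd7, for example, were lower without overlap.

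The trend along CD5 was tested next. Cells of each plate were split into 4 bins of equal size by CD5 signal, and the slope of log2 level on log2 CD5 was fitted over the 12 sums, so 1 unit is the change per doubling of CD5 signal. By edgeR, 0 of 33 tested members passed, against 6 of 5019 genes (0.120%), and 0 had an unadjusted p under 0.05, against 4.84% of all genes. DESeq2 called 3 of the 5019 genes and had 207 at an unadjusted p under 0.05, with 0 members in either count. The median slope was -0.01. Of the other chromatin genes, 134 were tested, 0 passed by edgeR and 6 had an unadjusted p under 0.05. Cd5 had a slope of 0.62 (adjusted p = 0.00294 by edgeR), and of 0.98 without plate 2 (adjusted p = 9.76e-09), the plate singled out by its Cd5 values. The steeper slope is thus no independent check. The call of Cd5 was lost without plate 1 (0.45, adjusted p = 0.489 by edgeR), without plate 3 (0.51, adjusted p = 0.796), with no replicate block (adjusted p = 0.462) and by DESeq2 (adjusted p = 0.442). Bcl11b again had the smallest p of the members, with a slope of 0.11 (SE 0.06), which was 0.03 without plate 2. From the lowest to the highest bin it had 537, 750, 626 and 532 CPM in plate 1, 422, 642, 705 and 691 CPM in plate 2, and 511, 593, 533 and 570 CPM in plate 3. The lowest bin was thus the lowest of the 4 in plates 2 and 3, and the highest bin was the lowest in plate 1. The other positive slopes of smallest p were those of Smarcc1 (0.28), Setd2 (0.18), Crebbp (0.20), Suz12 (0.14) and Hdac2 (0.17). The negative ones were those of Chd3 (-0.09), Hdac7 (-0.12), Smarca4 (-0.16), Chd7 (-0.07), Kdm6b (-0.09) and Ezh1 (-0.07). Without plate 2 the positive slopes of Smarcc1, Setd2, Crebbp, Suz12 and Hdac2 were 0.38, 0.18, 0.31, 0.20 and 0.05. The negative slopes of Chd3, Hdac7, Smarca4, Chd7, Kdm6b and Ezh1 were then -0.10, -0.19, -0.02, -0.16, -0.19 and -0.17. Leaving out another plate brought Setd2 to 0.06 and Chd7 to 0.03 (plate 3), and Smarcc1, Crebbp, Suz12 and Kdm6b to 0.13, 0.08, 0.07 and -0.01 (plate 1).

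Tet3 had slopes of opposite sign in different plates, a difference that did not pass the threshold over all genes. Its level from the lowest to the highest CD5 bin was 79.7, 208, 150 and 266 CPM in plate 1, 206, 171, 118 and 78.0 CPM in plate 2, and 265, 362, 279 and 352 CPM in plate 3. The highest bin was thus the highest of the 4 in plate 1 and the lowest in plate 2, where each bin lay below the one before, and plate 3 had no steady direction. The slopes were 0.53, -0.51 and 0.13. A test of the difference between plates (edgeR, plate by slope) gave an adjusted p of 0.266. Of the 33 members tested 0 passed, against 2 of 5019 genes (0.0398%), and 1 member, Tet3, had an unadjusted p under 0.05, against 4.96% of all genes. Cd5 itself had slopes of 0.91, 0.09 and 0.92 in the 3 plates, so plate 2 had the lowest slope for both genes. In the classes Tet3 had 253, 73.1 and 352 CPM in High cells, against 72.5, 211 and 265 CPM in Low cells.

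**Figure D4:**
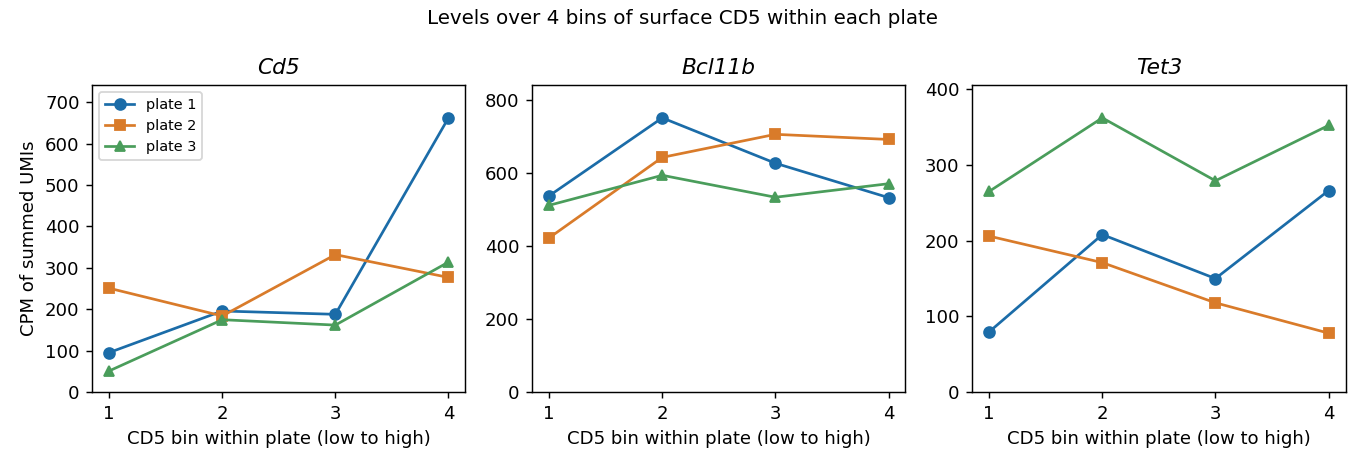
CPM of summed UMIs over 4 bins of surface CD5 from low to high, with 1 line per plate, for Cd5, Bcl11b and Tet3. In the highest bin Tet3 stands at 266 CPM in plate 1 and 78.0 CPM in plate 2, and Cd5 has its flattest line in plate 2.

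Single cells were compared after drawing 2118 UMIs from each of the 557 cells that had at least that many, which removed 140 shallower cells. A cell then showed a median of 6 of the 37 genes, with a range of 0 to 15, and the members made up a median of 0.472% of its UMIs. High cells (132) showed a median of 7 members and 0.472% of UMIs, and Low cells (150) a median of 7 members and 0.496%. With all UMIs, which follow the depth of each cell, the medians were 6, 11 and 9 members in High cells of plates 1, 2 and 3, against 8.50, 10 and 11 in Low cells. The median depth of those High cells was 2527, 5401 and 3688 UMIs, against 4200, 4987 and 4604 UMIs in Low cells.

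Correlations between members over single cells were weak. The 16 genes with a mean of at least 0.2 thinned UMIs gave 120 pairs, whose Spearman correlations over cells, averaged over the 3 plates, had a median of 0.015 and ran from -0.10 to 0.13. The median over all pairs of the 1479 genes with such a mean was 0.002. A mean correlation above 0.1 was found in 2.50% of the members' pairs and 1.97% of all pairs, and a positive value in every plate in 20.8% and 13.4%. Cells share plate, library and depth, so these values are a description. The highest pair was Ncor1 with Ash1l at 0.20, 0.13 and 0.05 in plates 1, 2 and 3. Then came Chd3 with Ctcf (mean 0.11), Kdm5a with Ash1l (0.11), Kdm5a with Chd4 (0.10), Chd4 with Bcl11b (0.09), Kdm5a with Setd2 (0.09), Kdm5a with Bcl11b (0.09) and Chd3 with Nsd1 (0.08). Kdm5a was in 4 of these 8 pairs. The lowest were Chd3 with Ash1l (-0.10), Ncor1 with Nsd1 (-0.09) and Tet3 with Ncor1 (-0.08), each negative in all 3 plates. In counts this sparse such values single no pair out.

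**Figure D5:**
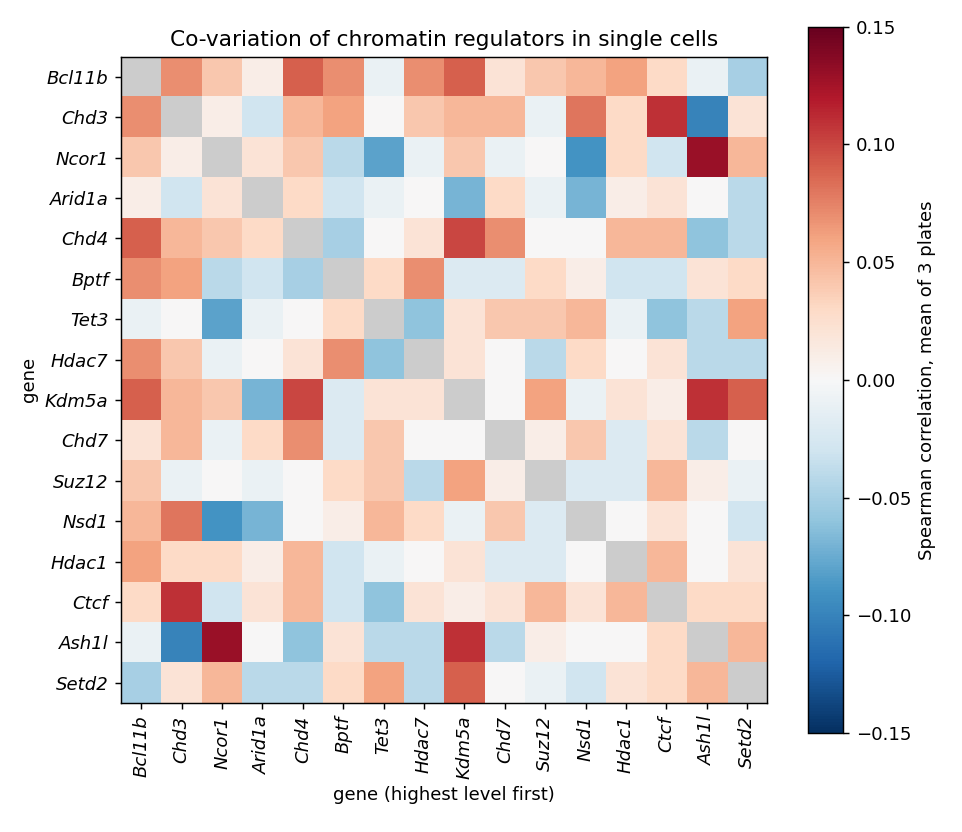
Spearman correlation over thinned cells, as the mean of the 3 plates, for each pair of the 16 members with enough UMIs, ordered by level from the highest. The colour scale ends at -0.15 and 0.15, and the values lie between -0.10 and 0.13, with the highest for Ncor1 with Ash1l.

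Cell-to-cell variability of the members lay near that of genes of like level. The variance-to-mean ratio of thinned counts was divided by the median ratio of the 101 genes nearest in mean. For the 31 members with a mean of at least 0.05 UMIs the result had a median of 1.02, against 1.01 for the 4130 genes so measured. Kdm5a was highest at 1.53, with variance-to-mean ratios of 2.41, 2.87 and 1.73 in plates 1, 2 and 3. Hdac2 (1.31), Kdm6b (1.30), Bcl11b (1.27) and Suz12 (1.25) followed. Kdm5a was the 1 member above the 95th percentile of all genes.

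Most members had long transcripts with many exons. The members' principal transcript in GENCODE M21 had a median of 7261 bases and 23 exons, against 2997 bases and 9 exons over 12470 genes. Smarcb1, Hdac2, Hdac3, Hdac1, Eed and Ezh2 lay below that median length, and Bcl11b, with 4 exons, below that number of exons. By position, 6 of the 37 genes lie on chromosome 11 and 4 each on chromosomes 6 and 9.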

How the data were processed

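Libraries followed SORT-seq, with CEL-Seq2 primers that carry a 6-base UMI, per the labels' protocols. BWA and mm10 are named per the submitters' processing notes. The version of BWA and the counting step are not stated there. The authors deposited expected counts per gene and cell, which are UMI counts that need not be whole, not scaled between cells. The CD5 values deposited by the authors are a fluorescence signal per cell, and the CD5 class is theirs. Some marker genes and part of the sort gate are not reported here. Spike-ins took 19.6% of counts and were left out. No cell was dropped from the main tests, and doublets were not sought, since cells were index-sorted singly. Plates reuse the same well barcodes (42, 150 and 173 well numbers occur in both plates of a pair), so cells are told apart by plate and well. Each plate is a library and the replicate, and as the classes of a plate share that library the plate was a block in each test; over 408 genes, sums of the same plate deviated together (r from 0.379 to 0.71). Sums were rounded and tested with edgeR 4.0.16 (R 4.3.3), TMM scaling and filterByExpr, with DESeq2 1.42.0 as an alternative. The code was tested on simulated data. Descriptions used Python 3.11.15. Members and gene lists were chosen with earlier results of these data known. Named genes were Cd5, members past the threshold or else the 6 of smallest p in each direction, up to 2 other genes per list, the 8 highest and 3 lowest pairs, the 5 most variable members, and, for levels, each group's highest and lowest gene. Alternatives changed scaling, test, filter, block, plates, depth, cells, classes and bins.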

Additional observations from a re-analysis of the deposited data

How the results depend on the processing

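The count of members past the threshold was 0 between CD5 High and Low cells, along CD5 and between plates in every alternative run. The unadjusted count never exceeded 3 members. Dropping single plates moved the genes called over the whole table between 0 and 20 for the class test (main 9) and between 0 and 14 for the slope (main 6), with the highest counts in both cases without plate 2. For the class test, 0 genes were called with DESeq2's Wald test or with no replicate block, 2 without cells in which Kcnq1ot1 and its co-varying genes exceed 10% of UMIs, 5 in thinned cells and 16 with no filter. For the slope, 0 were called with no replicate block, 1 without those cells, 3 by DESeq2, 10 with no filter and 11 with 3 bins. For the difference between plates (main 2), 0 were called without those cells and 5 with no filter. Cd5 lost its call with DESeq2, with no replicate block and without plate 1 or plate 3, where its class difference was 1.20 to 1.29. The sign of Setd2 turned in thinned cells (class difference -0.23, slope -0.13), and the slope of Chd7 ranged from -0.16 without plate 2 to 0.03 without plate 3; the cause was not tested. Leaving mitochondrial genes and Rn45s out of the total raises every level, by construction. All members then came to 6047 CPM, remodellers to 2227, deacetylases to 1084 and DNA-binding proteins to 875 CPM. Histone methyltransferases came to 436, demethylases to 399, Polycomb to 338 and acetyltransferases to 255 CPM. The raised level of the DNA methylation group, 356 ± 117 CPM in the main run (SD over plates), is not given here. In thinned cells histone methyltransferases came to 330 and DNA-binding proteins to 761 CPM, and as a mean over cells the methyltransferases to 344 CPM. The median correlation of member pairs was 0.072 with all UMIs as CPM per cell, where depth differs between cells and all pairs had 0.039. Without single plates the median variability ratio lay between 1.0 and 1.07. Depth limits the low genes: 5 members could not be tested by class.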
